A study of Mus musculus with 574 samples.

Results

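Granulocyte/macrophage progenitors (GMPs) sorted 12 days after 5-fluorouracil (5-FU) were compared with those sorted on day 10. Members were the single GMPs in the day 12 and day 10 columns with 50000 or more gene reads and 1000 or more detected genes, 178 of the 191 cells of these days. Of these, 93 came from day 10 (of 96 with a column) and 85 from day 12 (of 95), out of 500 kept cells and 573 with a column in the whole series. All animals were wild-type C57Bl/6 mice, 6 to 12 weeks old. Mice of both days had received 5-FU once, at 150 mg/kg, and differ in the labels by the day of harvest; 5-FU is a fluoropyrimidine that kills dividing cells. GMPs were sorted from bone marrow, 1 to a well, by the gate Lin-, c-Kit+, Sca-1-, CD34+, FcγR+. Libraries were made by Smart-seq2, which reads whole transcripts and carries no molecular identifiers. Each of days 10 and 12 is 1 set of cells, and the labels do not say how many mice gave a set. The 2 replicate sets on day 8 (90 and 93 kept cells) served as the yardstick for how much sets of 1 day differ. The sets of day 0 (92 kept cells) and day 14 (47) give context and enter the fit. The 5-FU dose of days 8 and 14 was the same. Day 0 carries the same 5-FU treatment label as the other days, and although PBS-treated controls are mentioned, the labels do not say what the day 0 mice were given.

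GMPs are committed progenitors that make neutrophils and monocytes. Neutrophil commitment is marked by primary granule proteases such as Elane and is driven by C/EBP factors and Gfi1. Monocyte commitment runs through Irf8 and the CSF1 receptor. After 5-FU removes dividing marrow cells, the progenitor pool expands and then returns towards its resting state. Where the days compared here fall in that course was not tested.

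Day was not the sole difference between the sets. In cells thinned to 50000 reads, the female transcript Xist had a read in 87.1% of day 12 cells and 1.08% of day 10 cells, while the Y-linked Eif2s3y or Kdm5d had one in 4.71% and 86.02%. The day 12 and day 0 sets thus carry female transcripts and the sets of days 8, 10 and 14 male ones, so day and sex cannot be told apart between days 12 and 10. X and Y genes were left out of every result below. A gene for which days 0 and 12 both lie above, or both below, all 4 other sets is said to split the sets by sex. The name gives the order of the sets, and whether sex, day or another difference set that order was not tested. Over all 14479 genes tested, 7.67% split with days 0 and 12 above and 6.89% with them below. Genes picked below for a difference between days 10 and 12 meet part of this definition by that choice. These shares are therefore no baseline for counts of splits among them. Kept day 10 cells held a median of 224022 reads and 7688 genes and day 12 cells 158578 reads and 6781 genes, and after thinning the medians were 5512 and 5175 genes. The summed sets held 27333941 and 17058337 reads. The sort genes were read on both days. Kit stood at 78.7 and 104 CPM (counts per 1e6 reads after TMM scaling) on days 10 and 12, Cd34 at 377 and 503 CPM and Fcgr3 at 370 and 282 CPM, while Ly6a, which encodes Sca-1, stood at 5.61 and 3.92 CPM.

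Ifitm1, H2-Q6, H2-Q7 and Ly6c2 carry the differences described below, and the sequence upstream of each is shown as context for them. The stretches come from RefSeq on GRCm38.p6, the build of the deposited counts (mm10). They read 5′ to 3′ on the gene's strand, with matches to the motifs searched in capitals. For Ifitm1 the bases nearest the start are left out because they overlap an annotated exon, and the stretch shown (chr7:140967826-140968027, plus strand) lies inside the span GENCODE gives the gene. The others are the 250 bases before the RefSeq start: H2-Q6 at chr17:35424600-35424849 and H2-Q7 at chr17:35438905-35439154 on the plus strand, and Ly6c2 at chr15:75111972-75112221 on the minus strand.
Ifitm1: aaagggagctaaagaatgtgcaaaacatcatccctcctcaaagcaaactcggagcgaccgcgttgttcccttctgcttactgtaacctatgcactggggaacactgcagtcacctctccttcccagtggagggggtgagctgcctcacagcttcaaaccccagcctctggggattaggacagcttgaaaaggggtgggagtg
H2-Q6: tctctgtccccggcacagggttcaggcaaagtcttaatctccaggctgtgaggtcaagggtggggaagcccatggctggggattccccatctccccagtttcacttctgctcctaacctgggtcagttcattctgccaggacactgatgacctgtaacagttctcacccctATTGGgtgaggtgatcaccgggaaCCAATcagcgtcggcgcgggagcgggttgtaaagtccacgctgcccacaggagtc
H2-Q7: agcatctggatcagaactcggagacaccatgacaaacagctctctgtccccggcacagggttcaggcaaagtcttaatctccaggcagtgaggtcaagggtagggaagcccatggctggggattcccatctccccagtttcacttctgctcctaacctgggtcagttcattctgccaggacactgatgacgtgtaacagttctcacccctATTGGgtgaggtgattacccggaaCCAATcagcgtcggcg
Ly6c2: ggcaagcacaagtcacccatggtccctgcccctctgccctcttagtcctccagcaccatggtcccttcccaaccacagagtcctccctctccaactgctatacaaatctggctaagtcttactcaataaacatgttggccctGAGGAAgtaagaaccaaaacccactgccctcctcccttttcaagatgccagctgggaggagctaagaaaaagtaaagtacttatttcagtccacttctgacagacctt

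The upstream stretches of H2-Q6 and H2-Q7 are near copies: 205 of 210 aligned bases (97.6%) were the same. Each holds the CCAAT box (CCAAT) once on each strand, 79 and 55 bases before the start in H2-Q6 and 40 and 16 in H2-Q7. The Ly6c2 stretch holds 1 match to the PU.1 motif GAGGAA, 108 bases before the start. The Ifitm1 stretch holds 0 matches to any motif searched. Both strands were searched for these motifs and for the C/EBP motif TTGCNNAA, the AP-1 motif TGANTCA, the interferon-stimulated response element and the kappaB motif. No match of 1 motif overlapped a match of another in the printed stretches. Of the 12 largest rises and the 12 largest falls described below, 8 each had a RefSeq promoter. CCAAT was in 4 of those 8 rises and 2 of those 8 falls, against 34.3% of 25748 autosomal promoters of 250 bases. GAGGAA was in 2 and 4 against 23.4%, TTGCNNAA in 1 and 3 against 9.67%, and TGANTCA in 1 and 1 against 6.9%. For the interferon-stimulated response element and the kappaB motif, 1 fixed letter pattern each was searched, and other forms of these elements were not. A count of 0 therefore does not show that a promoter, such as that of H2-Q6 or H2-Q7, lacks the element. The pattern for the interferon-stimulated response element was in 0 and 0 against 3.03%, and that for kappaB in 0 and 0 against 0.346%. These are descriptions of letters in a window.

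Between days 10 and 12 the interferon-induced membrane protein gene Ifitm1, the neutrophil granule gene Lcn2 and a group of genes high on days 8 and 10 fell, and the MHC class I genes H2-Q6 and H2-Q7 and the monocyte genes Ly86 and Ctsh rose. Most genes moved little. Among the 4796 genes that reached 32 CPM on day 10 or day 12, the median size of the log2 fold change was 0.223, against 0.214 for the log2 difference between the 2 day 8 sets. A log2 difference of at least 1 was found for 105 of them between days 12 and 10 and for 47 between the day 8 sets. Over all genes tested, the numbers were 2066 (14.3%) and 1650 (11.4%).

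Genes were described by a fold rule. A gene passed it when its log2 fold change was at least 1 in size, larger than its own day 8 difference and larger than the 95th percentile of that difference among genes of like level. Of 14479 genes, 390 (2.69%) passed it higher on day 12 and 431 (2.98%) lower. Among genes with at least 32 CPM these were 45 and 53. Few reads or few cells stood behind many of the others. One cell gave over 50% of a gene's reads on day 10 or day 12 for 108 of the 390 and 135 of the 431.

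A test was possible only by borrowing the spread from the day 8 pair, with days 10 and 12 assumed to vary like them. With edgeR's quasi-likelihood test and Benjamini-Hochberg adjustment, 24 genes (0.166%) were called higher and 31 (0.214%) lower, and all 55 also passed the fold rule. Of the 24, 13 split the sets by sex with days 0 and 12 above, and of the 31, 15 with them below. On cells thinned to 50000 reads the same test called 0 of 12670 genes in either direction, with a lowest adjusted p of 0.943. Of those 12670 genes, 255 higher and 280 lower had an unadjusted p under 0.05. The fit then rested on a prior of 3.96 degrees of freedom, against 31.1 for the full counts. DESeq2's Wald test called 7 higher and 18 lower on the full counts. In the text below, a gene rose or fell when edgeR called it on the full counts. Other differences are given as values.

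**Figure D1:**
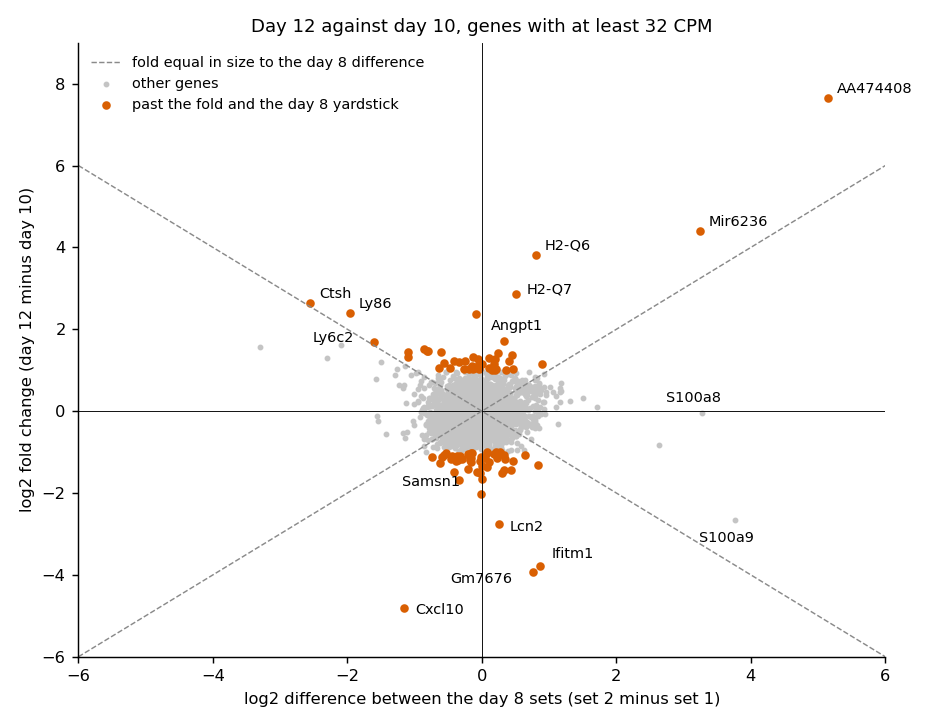
Each point is a gene with at least 32 CPM on day 10 or day 12. The y axis is the log2 fold change from day 10 to day 12, the x axis the log2 difference between the 2 day 8 sets, and orange points passed the fold rule (45 above, 53 below). Ifitm1, Lcn2, H2-Q6 and H2-Q7 lie 2.76 to 3.80 from 0 on the y axis and 0.26 to 0.87 on the x axis. Ctsh, Ly86 and Ly6c2 lie near the dashed lines of equal size, and for AA474408 and Mir6236 the day 8 sets differed by 5.14 and 3.24 against fold changes of 7.65 and 4.40.

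Ifitm1 (ENSMUSG00000025491, GRCm38 chr7:140967221-140969825), which encodes a small interferon-induced transmembrane protein found in stem and progenitor cells, fell and had the largest drop of all tested genes in the share of cells with a read. Day 0 stood at 39.9 CPM, the day 8 sets at 445 and 814, day 10 at 511 (exact Poisson 95% interval 502.6 to 519.6), day 12 at 37.3 (34.4 to 40.3) and day 14 at 94.8. Days 0 and 12 lay together, and both day 8 sets and day 10 lay far above them. Days 0 and 12 were the 2 lowest sets, the split by sex. The log2 fold change from day 10 to day 12 was −3.77 (SE 0.38, edgeR adjusted p = 1.92e-07), against a day 8 difference of 0.87. At equal depth, 95.7% of day 10 cells (exact 95% interval 89.4 to 98.8) and 34.1% of day 12 cells (24.2 to 45.2) had a read. Among cells with a read, the median was 16 reads on day 10 and 2 on day 12, so both the share of cells and the level in them were lower. Poisson and binomial intervals cover counting error only, since PCR copies are counted and cells of a set are not replicates. The related Ifitm3 stood at 309 and 137 CPM (log2 −1.17, edgeR adjusted p = 0.103), past the fold rule.

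Lcn2 (ENSMUSG00000026822, chr2:32384633-32388252), which encodes the iron-siderophore-binding granule protein lipocalin 2, fell from 155 CPM on day 10 (150.3 to 159.7) to 22.8 CPM on day 12 (20.6 to 25.2). Day 0 stood at 14.4 CPM, the day 8 sets at 85.7 and 102 and day 14 at 33.7. Day 10 was the highest set and days 0 and 12 were the lowest, so Lcn2 too split the sets by sex. The log2 fold change was −2.76 (SE 0.33, edgeR adjusted p = 6.54e-06) against a day 8 difference of 0.26. A read was found in 79.6% of day 10 cells (69.9 to 87.2) and 34.1% of day 12 cells (24.2 to 45.2). Of the 9 late neutrophil genes tested, 4 were higher and 5 lower, and Lcn2 was the one called lower. By the fold rule 1 passed upward and 1 downward (2.69% and 2.98% of all genes did). The list's median log2 fold change was −0.04, or 0.26 without each gene's top cell on each day. S100a8, which encodes a calcium-binding protein of mature neutrophils, stood at 214 and 208 CPM, and S100a9 at 50.3 and 7.84 CPM. The day 8 sets differed by 3.27 and 3.77 for S100a8 and S100a9, and 1 cell gave 77.05% and 91.98% of their day 10 reads. Without the top cells their log2 fold changes were 1.60 and 0.26. Lrg1, which encodes a secreted leucine-rich glycoprotein stored in neutrophil granules, fell from 31.9 to 1.25 CPM (log2 −4.57, edgeR adjusted p = 0.000274). Its share of cells went from 45.2% (34.8 to 55.8) to 3.53% (0.734 to 9.97), and both day 8 sets, at 12.2% and 15.1%, lay below day 10. Lrg1 also split the sets by sex with days 0 and 12 below.

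The other large falls included several metabolic and signalling genes. Gclm, which encodes the modifier subunit of the enzyme that starts glutathione synthesis, was at 73.7 CPM in the day 0 set, 174 and 219 in those of day 8, 223 at day 10, 82.3 at day 12 and 83.5 at day 14. Its log2 fold change was −1.44 (SE 0.31, edgeR adjusted p = 0.0215), and days 0, 12 and 14 lay together below the rest. Samsn1, which encodes an SH3-domain adaptor of blood cells, had 79.96 and 79.9 CPM in the day 8 sets, with day 10 at 79.7 and day 12 at 25.1 (log2 −1.66, SE 0.32, edgeR adjusted p = 0.00728). The day 8 and day 10 sets were within 1 CPM of each other, day 0 had 45.9 and day 14 had 44.96 CPM, and day 12 was the lowest of all sets. A read was found in 78.5% of day 10 cells (68.8 to 86.3) and 42.4% of day 12 cells (31.7 to 53.6). Emilin2, which encodes an extracellular matrix glycoprotein, fell from 100 to 38.7 CPM (log2 −1.37, edgeR adjusted p = 0.0317). Crat, the carnitine acetyltransferase, fell from 58.01 to 18 CPM (−1.68, edgeR adjusted p = 0.0317), and Mmd from 37.7 to 9.15 CPM (−2.03, edgeR adjusted p = 0.00817). Itga6, the integrin alpha 6 chain that binds laminin, stood at 36.4 and 12.8 CPM (−1.50, edgeR adjusted p = 0.0733). Samhd1, a dNTP hydrolase, went from 41.02 to 15.03 CPM (−1.44), Acadsb, an acyl-CoA dehydrogenase, from 33.02 to 11.8 (−1.48), and Arhgap27 from 32.1 to 11.2 (−1.51), none called by edgeR (adjusted p = 0.110, 0.149 and 0.166). Gclm, Emilin2, Crat, Mmd and Itga6 split the sets by sex with days 0 and 12 below, and Samsn1, Samhd1, Acadsb and Arhgap27 did not.

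A few large falls rested on little. Cxcl10, an interferon-induced chemokine, went from 155 to 5.41 CPM (log2 −4.82, edgeR adjusted p = 1.74e-07), but 1 cell gave 97.4% of its day 10 reads. Without the cell with most reads on each day its log2 fold change was −0.40. Serpina3g, a cytoplasmic protease inhibitor of blood progenitors, ran the other way: its level was 274 and 144 CPM (log2 −0.93, not past the rule), and 1 cell gave 81.3% of the day 12 reads. Without the top cells it was −2.91, and its share of cells with a read was 87.1% on day 10 (78.5 to 93.2) and 25.9% on day 12 (16.98 to 36.5). Gm7676, which GENCODE annotates as a processed pseudogene, went from 35.6 to 2.26 CPM (edgeR adjusted p = 2.65e-05), and it split the sets by sex with days 0 and 12 below. Reads of a processed pseudogene can be hard to tell from those of its parent gene, which was not tested.

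**Figure D2:**
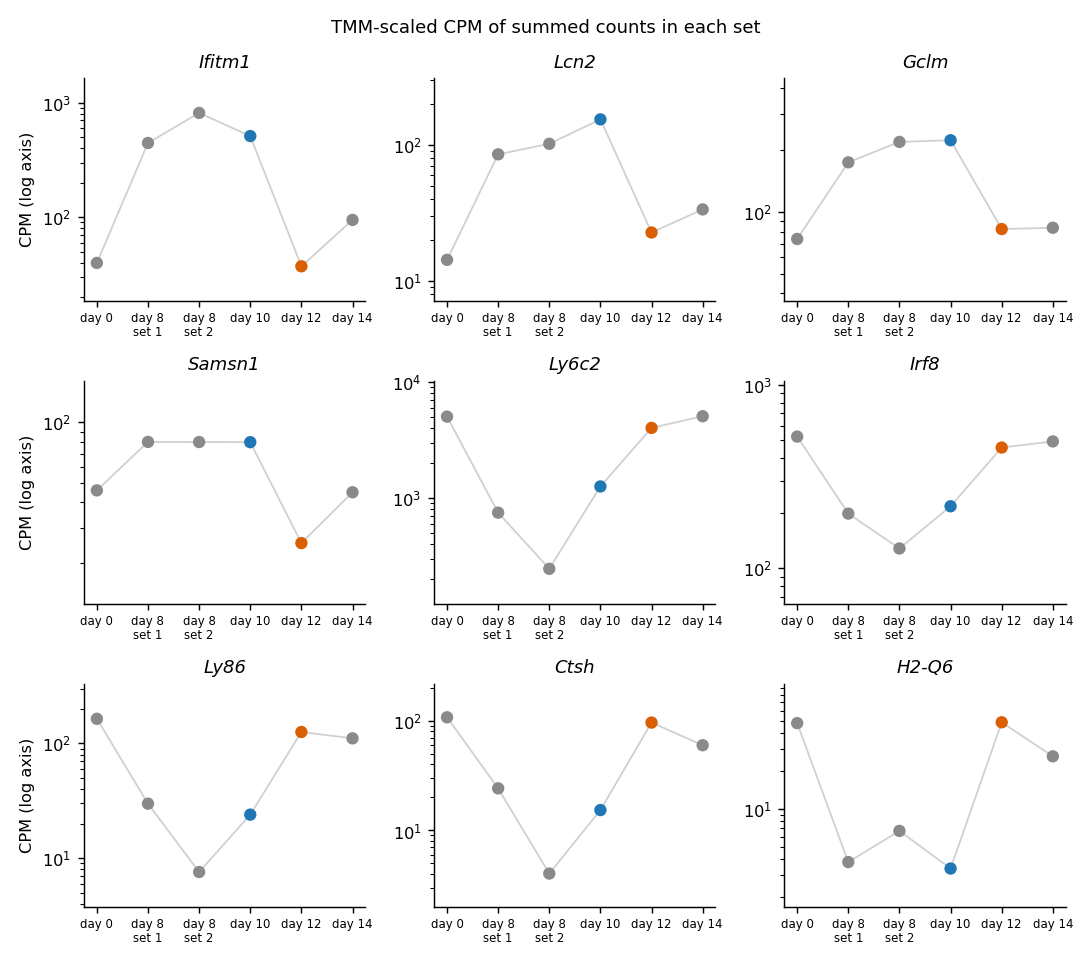
Each panel gives 1 gene, with the TMM-scaled CPM of the summed counts of each set on a log axis (blue, day 10; orange, day 12; grey, other sets; 1 point per set, no error bars). Ifitm1, Lcn2, Gclm and Samsn1 were high on days 8 and 10 and lower on day 12, and Ly6c2, Irf8, Ly86, Ctsh and H2-Q6 were low on days 8 and 10 and higher on day 12.

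Most monocyte genes were higher on day 12. Of 18 tested, 15 were higher and 6 passed the fold rule upward (2.69% of all genes did), 0 passed it downward, and their median log2 fold change was 0.89, against 0.00 over all genes tested. The same genes had a median difference of −0.68 between the day 8 sets, so those sets were themselves unequal for this list. Their summed level was 3339 CPM on day 10 and 6923 on day 12, against 2735 and 1499 in the day 8 sets. The median cell had 0.19% of its reads in these genes on day 10 (quartiles 0.106 and 0.43) and 0.523% on day 12 (0.185 and 1.06). The ranges of single cells, 0.0125 to 1.85% and 0.0143 to 2.44%, overlapped almost wholly. Of 8 stroma and endothelium genes tested (of 13 in the list), 7 were higher and 1 passed the fold rule upward (2.69% of all genes did). The median of the 8 was 0.77 (0.54 between the day 8 sets), and their summed level was 72.7 and 126 CPM. Of 5 nuclear RNAs that move with RNA quality, 4 were higher, with a median of 0.63 (0.59 between the day 8 sets). Their part in the monocyte result was not tested.

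Irf8 (ENSMUSG00000041515, chr8:120736358-120756694), the transcription factor that directs monocyte fate, was at 523 CPM in the day 0 set and 199 and 128 in those of day 8. Day 10 stood at 218 CPM (212.5 to 223.7), day 12 at 456 (445 to 466) and day 14 at 492. Its log2 fold change was 1.06, past the fold rule but not called (SE 0.33, edgeR adjusted p = 0.210). Csf1r, the receptor for macrophage colony-stimulating factor, stood at 71.3 and 136 CPM (0.93, edgeR adjusted p = 0.261), and its share of cells with a read was 52.7% (42.1 to 63.1) and 74.1% (63.5 to 83.02). Ly6c2 (ENSMUSG00000022584, chr15:75108158-75111970), which encodes the surface marker Ly6C of inflammatory monocytes, was the most abundant of the list. Day 0 had 5045 CPM, the day 8 sets 749 and 246, day 10 had 1260, day 12 had 4030 and day 14 had 5083. Its log2 fold change of 1.68 was barely larger than its day 8 difference of −1.61, and edgeR did not call it (adjusted p = 0.110). Nearly every cell had a Ly6c2 read on both days (94.6% and 100%), and the median of reads in those cells went from 29 to 173, so the difference was one of level. Its neighbour Ly6c1, whose reads are hard to tell from those of Ly6c2, was read in 26.9% (18.2 to 37.1) and 57.6% (46.4 to 68.3) of cells.

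Ctsh and Ly86 were the called members of the list. Ctsh (ENSMUSG00000032359, chr9:90054152-90076089), which encodes the lysosomal protease cathepsin H, had 107, 24.2, 4.05, 15.3, 96.2 and 59.8 CPM in the 6 sets in order of day (day 8 being both of its sets). Its log2 fold change was 2.64 (SE 0.55, edgeR adjusted p = 0.0151), against a day 8 difference of −2.55. Ly86 (ENSMUSG00000021423, chr13:37345208-37419036), which encodes MD-1, a partner of the Toll-like receptor homologue RP105, had 164, 29.8, 7.58, 23.96, 126 and 111 CPM in the same order. Its log2 fold change was 2.39 (SE 0.47, edgeR adjusted p = 0.00854), against −1.96 on day 8. For both genes the day 12 level was within the range of days 0 and 14 and above that of days 8 and 10, and the share of cells with a read differed too. That share was 22.6% (14.6 to 32.4) on day 10 and 63.5% (52.4 to 73.7) on day 12 for Ctsh, and 21.5% (13.7 to 31.2) and 55.3% (44.1 to 66.1) for Ly86. Both genes split the sets by sex with days 0 and 12 above. Not every monocyte gene was higher: Ccr2, the chemokine receptor of circulating monocytes, was at −0.66 and Zeb2 at −0.18.

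**Figure D3:**
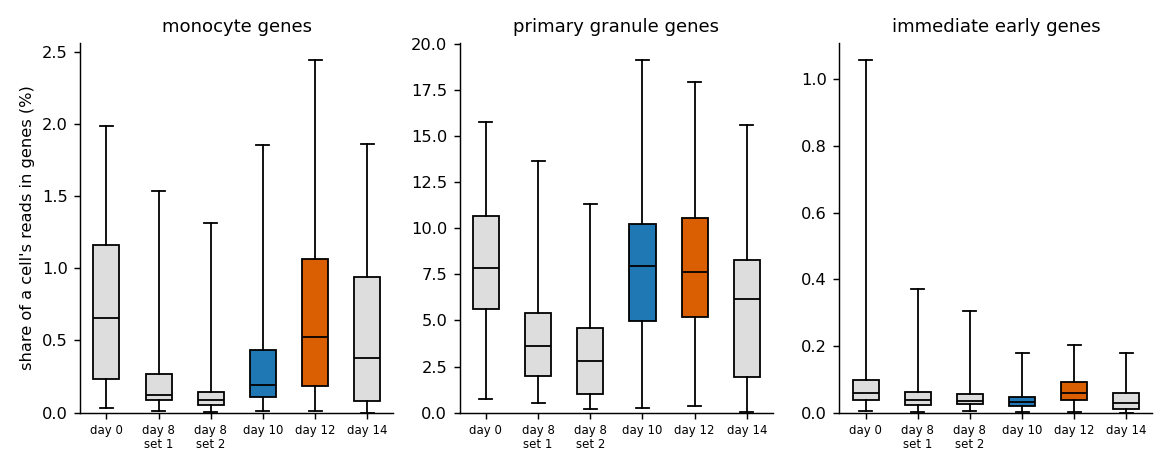
For 3 gene lists, boxes give the quartiles and median over kept cells of the percent of a cell's reads in the list, with whiskers to the lowest and highest cell, in each set. For monocyte genes the median was 0.19% on day 10 and 0.523% on day 12, for primary granule genes 7.98% and 7.62%, and for immediate early genes 0.0311% and 0.0594%.

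Among neutrophil primary granule genes, of which 14 were tested, 0 passed the fold rule in either direction (2.69% of all genes passed it upward and 2.98% downward). Of the 4796 genes with at least 32 CPM, 45 passed it upward and 53 downward. Of the 14 granule genes, 9 were lower, and the median log2 fold change was −0.33. Elane, which encodes neutrophil elastase, had 12369 CPM at day 10 and 15912 at day 12 (log2 0.36, edgeR adjusted p = 0.914). Mpo, myeloperoxidase, stood at 49964 and 52169 CPM (0.06), Ctsg, cathepsin G, at 13893 and 9251 (−0.59) and Prtn3, proteinase 3, at 7074 and 4962 (−0.51). The median share of a cell's reads in this list was 7.98% and 7.62%, both well above the 3.62% and 2.82% of the day 8 sets. Among the 8 granulocyte fate regulators, 6 were lower, and the median log2 fold change was −0.25. Cebpd was at −0.68, Per3 at −0.44, Cebpa at −0.36, Gfi1 at −0.13 and Cebpe at 0.14. Gfi1 had a read in 60.2% of day 10 cells (49.5 to 70.2) and 40% of day 12 cells (29.5 to 51.2), intervals that meet. The summed level of these 8 was 1353 and 751 CPM. The one member past the fold rule was Gstm1, a glutathione transferase high in granulocyte progenitors, at 979 and 445 CPM (−1.14, edgeR adjusted p = 0.143). Slpi, which encodes a secreted inhibitor of neutrophil elastase, rose from 138 to 379 CPM (log2 1.46, SE 0.33, edgeR adjusted p = 0.0392). Its day 0 level was 322 CPM and its day 8 levels 138 and 78.9, so day 10 matched the higher day 8 set. Day 14 had 300.9 CPM, and days 0 and 12 were the highest sets, the split by sex.

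Large rises were found in 2 MHC class I genes. H2-Q6 (ENSMUSG00000073409, chr17:35424850-35430055) was at 47.7 CPM in the day 0 set and 3.80 and 6.70 in the day 8 sets. Day 10 stood at 3.38 CPM (2.72 to 4.14), day 12 at 48.4 (45.1 to 51.9) and day 14 at 26.1. Its log2 fold change was 3.80 (SE 0.48, edgeR adjusted p = 1.67e-05) against a day 8 difference of 0.80. H2-Q7 (ENSMUSG00000060550, chr17:35439155-35443773) went from 5.21 to 38.7 CPM (2.87, SE 0.46, edgeR adjusted p = 0.000688). Both encode nonclassical class I molecules of the Qa-2 group, and days 0 and 12 were the highest sets for each, the split by sex. A read was found in 9.68% (4.52 to 17.6) and 51.8% (40.7 to 62.7) of cells for H2-Q6, and in 17.2% (10.2 to 26.4) and 45.9% (35.02 to 57.04) for H2-Q7. As the near-identical upstream stretches above show, these are close copies, and how reads were divided between them and other Q genes is uncertain. Of the 18 class I pathway genes tested, these 2 passed the fold rule upward (2.69% of all genes did). The other 16 stayed between −0.05 and 0.63, including B2m, the shared light chain, at 0.40, and H2-K1 and H2-D1, the classical heavy chains, at 0.33 and 0.24. The list's median was 0.38, against 0.31 between the day 8 sets. H2-DMb1, a class II peptide-loading gene in the same region, stood at 13.1 and 36.7 CPM (1.47, edgeR adjusted p = 0.191).

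**Figure D4:**
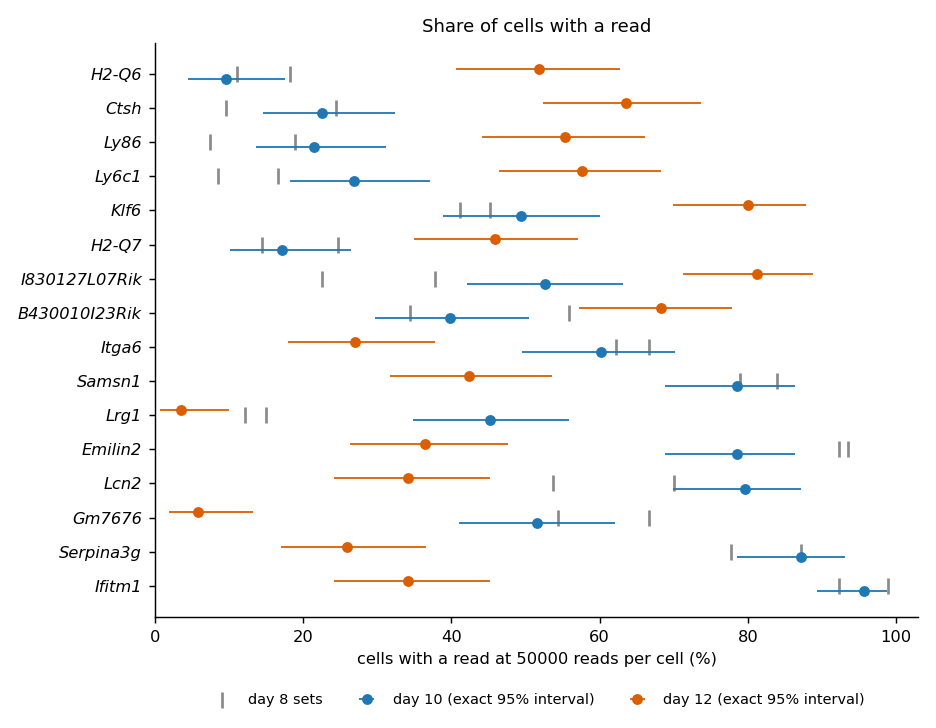
The share of cells with a read after thinning each cell to 50000 reads, for the 8 largest rises and 8 largest falls past the share rule (points with exact 95% binomial intervals; blue, day 10; orange, day 12; grey ticks, the day 8 sets). Ifitm1 shows the widest gap, from 95.7% to 34.1%, and the intervals of the 2 days are apart in every row, as the rule required.

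The share of cells with a read gave a count at equal depth. A gene passed the share rule when its shares on the 2 days differed by at least 20 percentage points, their exact intervals did not overlap and the difference exceeded that of the day 8 sets. By this rule 28 genes (0.193%) were higher on day 12 and 193 (1.33%) lower, while the median over all genes was −2.05 points, and thinned day 12 cells held fewer genes (above). Of the 28, 13 split the sets by sex, and of the 193, 51. Klf6, an immediate early zinc finger factor, was read in 49.5% of day 10 cells (38.9 to 60.03) and in 68 of 85 day 12 cells (69.9 to 87.9%), with 41.1% and 45.2% in the day 8 sets. The uncharacterised transcripts I830127L07Rik and B430010I23Rik went from 52.7% to 81.2% and from 39.8% to 68.2%. I830127L07Rik did not pass the fold rule, because its day 8 difference (−2.09) was larger than its log2 fold change of 1.62.

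Immediate early genes, which are induced within minutes of growth factor, stress or handling, were higher on day 12. Of 15 tested, 13 were higher (50.04% of all genes were) and 7 passed the fold rule upward (2.69% of all genes did) and 0 downward. The lowest edgeR adjusted p among them was 0.0829, for Ier2. The median log2 fold change was 1.02, against −0.34 between the day 8 sets. Jun had 48.6 CPM at day 10 and 112 at day 12 (1.21), Ier2 had 57.4 and 134 (1.23), and Dusp1, a MAP kinase phosphatase, had 24.95 and 58.2 (1.22). These 3 genes also stood higher on day 0 than on day 8 and split the sets by sex with days 0 and 12 above. The nuclear RNAs Malat1 and Neat1, which move with RNA quality, were higher on day 12 too, at 203 and 315 CPM (0.63) and 36.95 and 61.6 CPM (0.74), neither past the fold rule. Their part in the result was not tested.

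**Figure D5:**
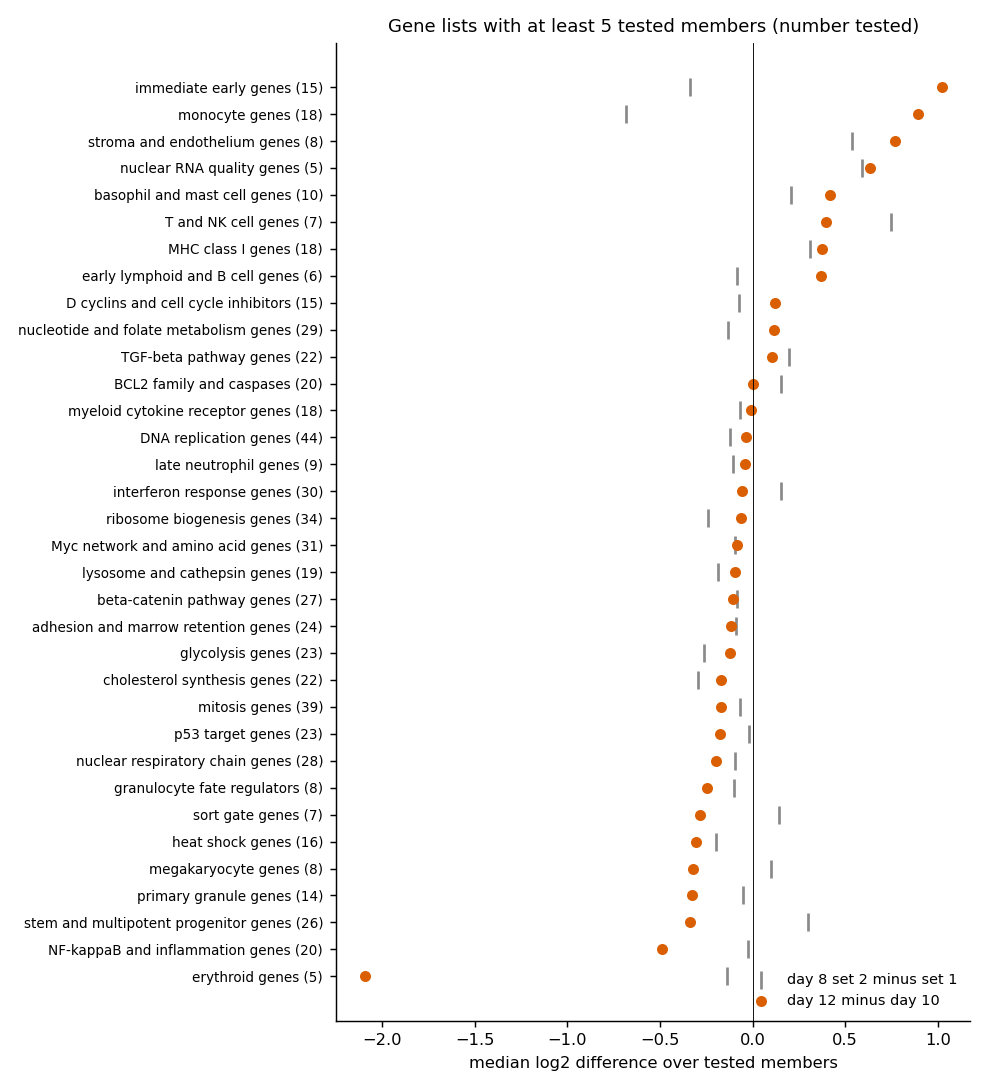
Median log2 difference over the tested members of each gene list with at least 5 tested members (number in brackets): orange points, day 12 minus day 10; grey ticks, day 8 set 2 minus set 1. Immediate early and monocyte genes lie highest at 1.02 and 0.89, with day 8 ticks at −0.34 and −0.68. The sign of a tick depends only on how the day 8 sets are numbered. Erythroid genes lie lowest at −2.09 over 5 genes, and most other lists lie within 0.5 of 0.

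Genes of inflammation and of the interferon response were lower in part. Of 20 genes of NF-kappaB and inflammation, 16 were lower and 5 passed the fold rule downward (2.98% of all genes did), with a median of −0.49 (−0.35 without the top cell of each gene). Beside Cxcl10 these were Tlr4, the endotoxin receptor, at 23.4 and 7.66 CPM (−1.60), Birc3, an inhibitor of apoptosis, at 12.8 and 4.40 (−1.52), and Bcl3 at 17.1 and 6.36 (−1.41) and Nfkb2 at 12.7 and 4.93 (−1.35), members of the NF-kappaB system. The edgeR adjusted p values of the last 4 were 0.252, 0.282, 0.393 and 0.509. Of 30 interferon response genes, 8 passed downward and 1 upward (2.98% and 2.69% of all genes did). Yet the median of the 30 was −0.06 (−0.54 without the top cells). Ifih1, a sensor of double-stranded RNA, stood at 21.6 and 9.45 CPM (−1.19), Usp18 at 13.8 and 3.98 (−1.76) and Oasl1 at 12.1 and 2.14 (−2.45). One cell gave 69.9% of the day 10 reads of Usp18 and 37.6% of those of Oasl1. Ifi209 ran against these, at 26.2 and 77.9 CPM (1.57), with a day 8 difference of −3.30.

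Stem and multipotent progenitor genes were split. Of 26 tested, 18 were lower, 3 passed the fold rule downward and 1 upward (2.98% and 2.69% of all genes did), and the median was −0.34 against 0.30 between the day 8 sets. The list's summed level was 1647 CPM on day 10 and 856 on day 12, and Ifitm1 alone held 511 and 37.3 CPM of these. Hoxa9, a homeobox factor of early progenitors, stood at 27.1 and 16.9 CPM (−0.68), Flt3 at 10.9 and 9.33 (−0.22) and Meis1 at 22.4 and 26.8 (0.26). Angpt1, which encodes the Tie2 ligand angiopoietin 1, rose from 7.67 CPM on day 10 (6.66 to 8.78) to 40.3 on day 12 (37.3 to 43.4). The day 8 sets had 39.4 and 37.1 CPM, day 0 had 17.4 and day 14 had 2.04, so day 10 was lower than the sets on either side of it. The log2 fold change was 2.38 (SE 0.42, edgeR adjusted p = 0.00248), with a read in 8.60% (3.79 to 16.2) and 24.7% (15.99 to 35.3) of cells, intervals that meet.

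Cell division and growth genes differed little in summed level. Of 44 DNA replication, 39 mitosis and 34 ribosome biogenesis genes, 0 passed the fold rule (2.69% of all genes passed upward and 2.98% downward). Passing was rarer among better-read genes: of the 4796 with at least 32 CPM, 45 passed upward and 53 downward. Their median log2 fold changes were −0.04, −0.17 and −0.06. At equal depth, the share of cells with a read differed by a median of −7.24, −9.42 and −6.68 points (−2.05 over all genes). The median cell's reads in these lists went from 0.604% to 0.554%, 0.283% to 0.212% and 0.461% to 0.399%. Tyms, the thymidylate synthase that 5-FU blocks, stood at 150 and 146 CPM, Mki67 at 133 and 127, and Myc at 330 and 338. Odc1, a Myc target that starts polyamine synthesis, was past the rule at 78.2 and 38.3 CPM (−1.03, edgeR adjusted p = 0.194). Among D cyclins and cell cycle inhibitors, Ccnd1 was lower at 12.3 and 3.98 CPM (−1.60). Btg2 (23.4 and 54.9 CPM, 1.23), Cdkn1a (8.77 and 23.3 CPM, 1.40) and Cdkn2c (5.21 and 12.9 CPM, 1.29) were higher. The first and second of these are p53 targets, while Pmaip1, another p53 target that promotes apoptosis, was at 13.9 and 4.87 CPM (−1.49). None of these 5 was called.

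Genes of other cells that a GMP gate can hold differed in how widely they were read. Rap1b of the megakaryocyte list had a read in 97.8% of day 10 cells and 89.4% of day 12 cells. Of 6 early lymphoid and B cell genes tested, 5 were higher and 1 passed the share rule upward (0.193% of all genes did). That gene was Ighm, at 169 and 266 CPM and read in 69.9% and 90.6% of cells. Of 5 erythroid genes tested (of 15 in the list), 3 passed the fold rule downward (2.98% of all genes did). Their median was −2.09, or −1.51 without the top cells, and it ran from −2.37 to −0.40 over the alternatives run. The summed level of the 5 tested was 120 and 98.7 CPM. Car2, carbonic anhydrase 2, fell from 38.4 to 13.3 CPM (log2 −1.52, SE 0.33, edgeR adjusted p = 0.0223) with 106 and 132 CPM on day 8. Klf1, the erythroid master factor, fell from 5.14 to 0.238 CPM (140 reads and 4 reads; edgeR adjusted p = 0.0275). Gfi1b had 216 reads on day 10 and 30 on day 12, of which 1 cell gave 68.98% and 56.7%. The basophil and mast cell genes Ms4a2, a chain of the IgE receptor, and Gata2 were past the rule upward at 16.5 against 4.55 CPM and 36.5 against 18.1 CPM. For Ms4a2, 1 cell gave 91.7% of the day 12 reads and the fold was −0.12 without the top cells, and for Gata2 the mean of CPM per cell gave −0.16, so both turned. The megakaryocyte gene Itga2b, at 8.51 and 24.8 CPM, likewise turned to −0.25 in the mean of CPM per cell. Prg2, an eosinophil granule gene, had 733 reads on day 10, of which 1 cell gave 98.9%, and 0 on day 12. The summed level of the 3 macrophage genes tested (of 9 in the list) was 26.6 and 33.98 CPM. That of the 3 dendritic cell genes tested (of 13 in the files) was 96.3 and 112 CPM.

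Among the 12 largest rises with at least 32 CPM, AA474408 and Mir6236 had the largest fold changes, 7.65 and 4.40, and the largest differences between the day 8 sets. In order of day, AA474408 had 114, 41.9, 1486, 4.44, 910 and 3407 CPM in the 6 sets and Mir6236 had 306, 354, 3337, 64.7, 1367 and 4494 CPM. Both genes rose by the edgeR call, although the day 8 sets differed by 5.14 and 3.24 on the log2 scale. A call therefore did not require a small day 8 difference. One cell gave 37.7% and 45.4% of the day 12 reads. Rgs10, a regulator of G-protein signalling, stood at 12.3 and 40.7 CPM (1.71, edgeR adjusted p = 0.0532), and Chst13, a sulfotransferase, at 16.4 and 47.3 CPM (1.52, edgeR adjusted p = 0.151).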

How the data were processed

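The authors deposited raw counts, 1 whole number for each gene in each cell. The submitters' processing notes name GSNAP, HTSeq 0.5.3p3 and mm10. The 574 labelled cells have 573 matched columns, and 1 column was not used. The 92 spike-in rows and the 5 rows that name no gene were left out (in the median cell the latter took 89.1% of reads on day 10 and 91.7% on day 12), as were X and Y genes and 849 of 46078 gene IDs that GENCODE vM21 (GRCm38) does not hold. The kit marks no strand, so overlapping antisense genes cannot be told apart, and no doublet caller was run.

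Counts of kept cells were summed per set. Genes were tested if they passed edgeR's filterByExpr and were read in 10% or more of any set's kept cells (14479). Log2 values used TMM factors and a prior count of 2. The test was edgeR 4.0.16's quasi-likelihood F test (R 4.3.3) with a mean for each of 5 days over the 6 sets, 1 residual degree of freedom, a prior of 31.1, a common dispersion of 0.0755 and Benjamini-Hochberg adjustment at 0.05. Whether the day 8 sets are separate mice is not in the labels, and the p-values reflect no more than the spread between those sets, which may be technical. On simulated counts of the 14479 genes, edgeR called 15, 0, 1 and 14 of 50 genes at log2 folds of −2, −1, 1 and 2 for this comparison, with 0 calls among unchanged genes. Every simulated gene had the common dispersion, and folds were placed only in better-read genes. Genes with most reads from 1 cell were not simulated, so these counts do not give the rate of false calls in the real sets. The day 8 percentile was taken in 10 bins of mean level. Percent of reads per cell used all genes. For shares, each cell was thinned at random to 50000 reads, and intervals are exact binomial at 95%. No 2 cells were identical (0 pairs).

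Named genes were the 12 largest rises and falls past the fold rule with at least 32 CPM, a read in 20% of thinned cells and the same direction in the mean CPM per cell, the 8 largest rises and falls of share, up to 4 members per list with at least 10 CPM, and 26 chosen genes. Klf1, Gfi1b, Nfkb2, Ccr2, Zeb2, B2m, H2-K1 and H2-D1, and Thbs1, Sdc2, P2ry2, Spp1 and Tex2, were named after their values were seen. The members, the 37 lists and the rules were chosen with earlier results of these data known. Alternatives were DESeq2 1.42.0, limma 3.58.1 voom, other filters, cells, scalings and thresholds, and, added after seeing the data, leaving out each gene's top cell on each day.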

Additional observations from a re-analysis of the deposited data

How the results depend on the processing

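The edgeR counts of 24 higher and 31 lower genes became 56 and 76 with no gene filter, 47 and 80 with cells of at least 200000 reads and 2000 genes, 0 and 0 with cells thinned to 50000 reads, and 7 and 18 with DESeq2's Wald test. Of the 55 genes, these settings kept 55, 38, 0 and 24. The cause was not tested beyond the prior degrees of freedom given above. DESeq2 size factors, no cell filter, no Slc34a2 and CT010467.1, X and Y genes kept, limma voom and no day 14 set left both counts within 1.5 times. The fold rule's 390 higher and 431 lower became 798 and 805 with no gene filter, 123 and 143 with the 99th percentile and 190 and 210 with a log2 fold of 2. It gave 600 higher with the 90th percentile, 733 lower with the deeper cells and 282 lower with thinned cells. The share rule's 28 and 193 became 5 and 18 at 30 percentage points, 14 and 64 with at least 5 reads and 16 and 530 without thinning. Among single genes, Gata2 turned to −0.12 with thinned cells and −0.16 with the mean of CPM per cell, Itga2b to −0.34 and −0.25, and Ms4a2 to −0.12 without its top cells. No other named gene past the fold rule changed sign. Over the alternatives run, the median log2 fold change stayed between 0.73 and 0.99 for monocyte genes and between 0.86 and 1.03 for immediate early genes. It ran from −2.37 to −0.40 for erythroid, −0.54 to −0.04 for interferon response and −0.69 to −0.185 for stem and progenitor genes. No paired analysis was possible because days 10 and 12 are 1 set each. Leaving out a day 8 set leaves no residual degree of freedom and no yardstick, and leaving out day 10 or 12 ends the comparison, so those were not run. Depth limits genes of few reads: the 95th percentile of the day 8 difference was 1.81 in the lowest bin of level and 0.573 in the highest.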

Other observations

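Some genes called by edgeR were near 0 on day 10 and read in a modest share of day 12 cells. Thbs1, which encodes the matrix protein thrombospondin 1, had 4 reads on day 10 and 205 on day 12 (log2 5.65, edgeR adjusted p = 0.00427). It was read in 17 of 85 thinned day 12 cells (exact 95% interval 12.1 to 30.1%) and in 0 of 93 day 10 cells, which allows a share of up to 3.23% by the limit of 3 cells (exact 95% upper limit 3.89%). Sdc2, the proteoglycan syndecan 2, was read in 11.8% (5.79 to 20.6) of day 12 cells and in 0 of 93. Both genes were also low on days 8 and 14 (at most 0.766 CPM) and split the sets by sex, with 1.35 and 1.90 CPM on day 0. Ctsf, which encodes the lysosomal protease cathepsin F, rose from 3 reads (0.110 CPM, exact Poisson interval 0.0227 to 0.322) to 180 (10.7 CPM, 9.19 to 12.4; edgeR adjusted p = 0.0156). The day 8 sets had 0.716 and 0 CPM, and Ctsf split the sets by sex as well. Tex2, which encodes a lipid transfer protein, rose from 48.2 to 132 CPM (1.45, edgeR adjusted p = 0.0342), above the 24.5 to 92.6 CPM of the other sets, and Tex2 split them the same way.

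Among called falls outside the largest named ones, P2ry2, a receptor for extracellular ATP and UTP, went from 31.2 to 4.93 CPM (−2.64, edgeR adjusted p = 0.00248) and its share of cells from 36.6% to 9.41%. Spp1, the secreted glycoprotein osteopontin, went from 29.3 to 4.46 CPM (−2.69, edgeR adjusted p = 0.00351) and from 30.1% to 5.88% of cells. Both stood at 12.9 and 10.2 CPM on day 0 and at 19.2 to 44.7 CPM in the day 8 sets, and Spp1 split the sets by sex with days 0 and 12 below. The transcriptional co-repressors Ski and Skil of the TGF-beta pathway were higher on day 12, Ski at 4.48 and 18.3 CPM (2.01) and Skil at 1.92 on the log2 scale. The other 20 tested members of that pathway did not pass the fold rule (2.69% of all genes passed it upward and 2.98% downward).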
